A study of Mus musculus with 16 samples.

Results

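The genes described are the heat shock proteins and chaperonins, taken as every gene in the count table whose symbol is an Hsp name, a Dnaja, Dnajb or Dnajc name, Tcp1 or one of Cct2 to Cct8, or one of Bag1 to Bag6. This gave 89 of the 48709 genes. RNA was sequenced from C57BL/6 mouse cerebral cortex in 2 preparations. Synaptosomes (SYN) are nerve terminals that break off and reseal when the tissue is homogenized, isolated here by the method of Gray and Whittaker, and total homogenate (TH) is the material set aside before that isolation. The groups were SYN at 3 weeks, SYN at 5 months, SYN at 19 months and TH at 5 months, with 4 libraries each that the submitters call biological replicates. No allele, transgene or drug is labelled in any group, all mice share the strain, and the labels used here give neither sex nor whether tissue was pooled. Libraries were made from a small amount of RNA with a stranded total RNA kit and depleted of the 18S and 28S rRNAs.

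Chaperones bind proteins that are not yet folded, or no longer folded, and release them in cycles driven by ATP. HSP70 proteins take up short greasy stretches, J-domain proteins (DNAJ) bring them clients and start the ATP cycle, and BAG and HSP110 proteins reset it. HSP90 finishes kinases and receptors, and the ring-shaped CCT chaperonin folds actin and tubulin. At nerve terminals HSP70 works with auxilin to strip clathrin from recycled synaptic vesicles and with cysteine string protein to keep the release machinery folded. The endoplasmic reticulum (ER) and mitochondria hold chaperone sets of their own, and the unfolded protein response raises the ER set while heat shock factor raises the cytosolic one.

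The ER and cytosolic forms carry different last codons, shown as background. These ends do not sort the genes by their change between synaptosomes and homogenate. The cytosolic Hsp90ab1 and Hspa1b were called higher in synaptosomes, as were Hspa5 and Hsp90b1, while Hspa8 was called lower and Hsp90aa1 was not called. Capitals mark the last 4 codons before the stop codon, read on the gene's strand from GENCODE transcripts on GRCm38. In Hspa5 and Hsp90b1 they spell the KDEL signal that returns proteins to the ER, and in the cytosolic genes the EEVD end that co-chaperones hold.
Hspa5 (chr2:34776087-34776110, plus strand): gatacatcagaaAAAGATGAGTTG
Hsp90b1 (chr10:86691105-86691128, minus strand): gaatctacagagAAGGATGAATTG
Hspa8 (chr9:40805091-40805114, plus strand): ggccccaccattGAAGAGGTGGAT
Hspa1b (chr17:34957082-34957105, minus strand): ggacccaccatcGAGGAGGTGGAT
Hsp90aa1 (chr12:110691543-110691566, minus strand): acatcacgcatgGAAGAAGTAGAC
Hsp90ab1 (chr17:45568018-45568041, minus strand): gcctcgcgcatgGAAGAGGTGGAT

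The promoters of several ER genes share the ER stress response element, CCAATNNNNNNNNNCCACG, the site through which the unfolded protein response acts. It was searched on both strands of RefSeq promoter windows (GRCm38.p6, the 250 bases before each start) and was chosen after expression values had been seen. A gene with several windows was counted once. The element stood in 3 of the 73 chaperone genes that could be matched (4.11%), against 35 of 27025 genes in all (0.13%). Those 3 genes are Hspa5, Hsp90b1 and Dnajc3, and 4 of 11 matched ER partner genes held it too. The Hspa5 site lies inside the gene's span in the count table, which begins at chr2:34771970, before the RefSeq start used here. Capitals mark the fixed letters.
Hspa5 (chr2:34772025-34772043, plus strand): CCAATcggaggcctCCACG
Hsp90b1 (chr10:86705638-86705656, minus strand): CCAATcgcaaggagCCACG
Hsp90b1 (chr10:86705533-86705551, plus strand): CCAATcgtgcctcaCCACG
Dnajc3 (chr14:118937827-118937845, plus strand): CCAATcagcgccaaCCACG
Calr (chr8:84847075-84847093, plus strand): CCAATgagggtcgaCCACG
Canx (chr11:50325800-50325818, minus strand): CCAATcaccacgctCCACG
A match is a description of letters and shows neither binding nor use. The Hsp90b1 window is given below over the 185 bases outside annotated exons (chr10:86705510-86705694, minus strand), with both elements in capitals, the second of them lying on the opposite strand.
Hsp90b1 promoter: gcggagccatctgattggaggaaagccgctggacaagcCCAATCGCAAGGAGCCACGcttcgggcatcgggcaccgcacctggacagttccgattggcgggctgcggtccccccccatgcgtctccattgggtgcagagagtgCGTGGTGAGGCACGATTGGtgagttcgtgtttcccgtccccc

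The heat shock element, the binding site of heat shock factor, is a run of GAA and TTC units. In the form of 3 alternating units (GAANNTTCNNGAA or TTCNNGAANNTTC, either strand) it stood in 3 of 73 chaperone genes (4.11%) and 139 of 27025 genes in all (0.514%), in the same windows. These were Dnajb6 and the neighbours Hspd1 and Hspe1, which encode the mitochondrial chaperonin HSP60 and its lid HSP10 and are read in opposite directions from one shared stretch. The Dnajb6 site lies inside the gene's span in the count table, which begins at chr5:29735688.
Dnajb6 (chr5:29735852-29735864, plus strand): GAAtcTTCcgGAA
Hspe1 (chr1:55088059-55088071, plus strand): TTCtaGAAccTTC
With 2 units (GAANNTTC or TTCNNGAA, a form that lies within the longer one) the counts were 16 genes (21.9%) and 3932 genes (14.5%), and Hspa1a, Hspa1b, Hspb1, Hsph1 and Dnaja1 were among those 16. For Hspa1b the 2-unit site is GAAgaTTC (chr17:34959335-34959342, minus strand).

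The libraries held 10.6 to 21.7 M counts (M, mega). The mitochondrial rRNA share averaged 39.3% ± 4.24 (SD, n = 4) in 5 months SYN, against 19.2% ± 1.91 (SD, n = 4) in 5 months TH, and 19 months SYN replicate 1 stood apart from its group at 52.3% (32.9 to 33.6% in the other 3). At 4817 CPM of the nuclear RNA Malat1, 5 months SYN replicate 4 lay above the 947 to 1458 CPM of its group. Nothing in the labels says whether replicates came from separate mice, so p-values measure the spread between these libraries. In bulk libraries, fewer cells or terminals of a type and less RNA in each cannot be told apart.

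Levels are CPM, counts relative to library size, scaled over all 16 libraries and given for replicates 1 to 4 in that order. Together the 89 chaperone genes took 5477 to 6224 CPM in 3 weeks SYN, 5186 to 5636 CPM in 5 months SYN, 4785 to 5138 CPM in 19 months SYN and 4629 to 4785 CPM in 5 months TH. One gene made up much of this: Hsp90ab1, the constitutive cytosolic HSP90, gave 30.9% of the chaperone total in 5 months SYN and 24.2% in 5 months TH. Levels per kilobase use the deposited gene length, which counts exon bases and can exceed a transcript (Hspa8, 4156 bases against 2394). The order of genes with close levels therefore depends on the length used. On that scale Hsp90ab1 lay at 558 ± 40.5 CPM per kb in 5 months SYN (mean ± SD, n = 4), far above Hsp90b1, the ER form of HSP90, at 90.3 ± 2.90 CPM per kb. Bag1, an exchange factor of HSP70, followed at 74.9 ± 5.37 CPM per kb and Hsp90aa1, the inducible cytosolic HSP90, at 57.8 ± 3.36 CPM per kb. Hspa5, the ER HSP70 also called BiP, lay at 48.5 ± 3.09 CPM per kb, and Hspa8, the constitutive cytosolic HSP70, at 38.4 ± 1.49 CPM per kb. In 5 months TH the order after Hsp90ab1 was Hsp90aa1 at 64.4 ± 5.67 CPM per kb, Hsp90b1 at 61.1 ± 8.93 CPM per kb and Hspa8 at 53.1 ± 6.09 CPM per kb. At least 1 CPM per kb was reached by 70 chaperone genes in 5 months SYN and 68 in 5 months TH. At the other end, 11 of the 89 genes passed the filter on low counts in no comparison, with at most 1.08 CPM in any library (Cct6b, Dnajb13, Dnajb3, Dnajb7, Dnajb8, Dnajc22, Hspa1l, Hspb2, Hspb3, Hspb7 and Hspb9).

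**Figure D1:**
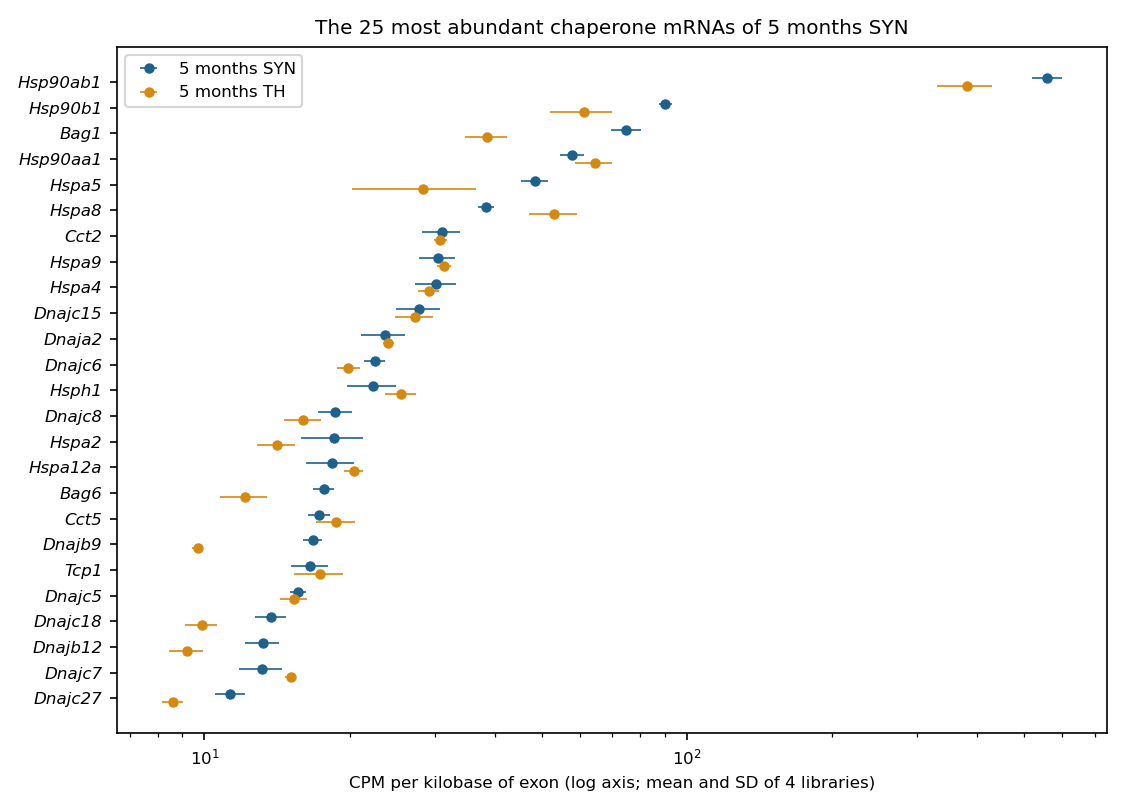
Level per kilobase (CPM per kb, log axis) of the 25 chaperone genes most abundant in 5 months SYN, as mean ± SD of 4 libraries, in 5 months SYN and 5 months TH. Hsp90ab1 stands well apart from the rest in both groups.

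Sequence shared between genes limits some of these levels. In 13 of 88 chaperone genes over 10% of the 50-base stretches of the transcripts also occur in another gene, among them Hspa8 (73.2%), the near-identical pair Hspa1a (60.3%) and Hspa1b (62.3%), Hspb1 (58.9%) and Hsp90aa1 (58.5%), while 55 share none. In 12 of 89 genes over 10% of exon bases lie under exons of the other strand, as in Dnaja4 (44.1%), and the strand setting of the counting is not given in the sources used here. Values of these genes are uncertain to that extent.

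Against homogenate at the same age, synaptosomes carried more RNA of most ER chaperones and less of several cytosolic and heat-inducible ones. Of 78 chaperone genes tested, 18 were higher and 18 lower in 5 months SYN than in 5 months TH (edgeR quasi-likelihood F test on 8 libraries, Benjamini-Hochberg adjusted p under 0.05 over all 17374 genes tested). That is 23.1% each way, against 24.5% of all genes called higher, 25.6% called lower and 50.1% called in either direction, so the share of chaperone genes called is near the background. The median log2 fold change was -0.045 for the chaperone genes and -0.050 for all genes. Upper-quartile scaling moved the median of all genes to -0.19 and gave 17 higher and 28 lower, and scaling by DESeq2 size factors gave 17 higher and 24 lower. Among the 18 lower genes, Hspb1, Hspa12b and 1 of the 2 gene IDs of Hspa14 passed the filter on low counts through TH, where they are high, and without these 3 there were 15 lower and 18 higher of 75. The names of the count columns give SYN and TH libraries of one replicate number a further number in common, so each pair may come from one homogenate, which no label states. A fit with the replicate number as a block gave 20 higher and 19 lower, with Dnajb14 (adjusted p = 0.0315), Dnajc8 (adjusted p = 0.0453), Dnajb5 (adjusted p = 0.0374) and Hsph1 (adjusted p = 0.0282) passing by edgeR and Hspbap1 (adjusted p = 0.0600) not. With each of the 8 libraries left out in turn 30 of the 36 calls held every time, and those lost with some library out were Dnaja3, Dnajc13, Dnajc2, Dnajc6, Hspa14 and Hspbap1. Markers of other cells moved in this contrast too: 8 of 8 astrocyte markers were higher (summed 6580.5 to 7625 CPM in 5 months SYN and 2873 to 3439.9 CPM in 5 months TH) and 8 of 8 microglia markers were higher (176 to 211 CPM in 5 months SYN and 79.0 to 83.8 CPM in 5 months TH). Neuron markers were higher in 4 and lower in 1 of 6 (7609 to 8986 CPM in 5 months SYN and 3928 to 4402 CPM in 5 months TH). Oligodendrocyte markers were higher in 4 of 6 (1924 to 2381 CPM in 5 months SYN and 1203 to 1330 CPM in 5 months TH). Oligodendrocyte precursor markers were higher in 3 of 3 (89.7 to 107 CPM in 5 months SYN and 49.2 to 59.3 CPM in 5 months TH). By contrast, 9 of 10 endothelial and mural markers were lower (45.5 to 77.1 CPM in 5 months SYN and 202 to 295 CPM in 5 months TH), as were 4 of 4 nuclear RNAs (1276 to 6239.8 CPM in 5 months SYN and 19035 to 23152 CPM in 5 months TH). Red blood cell markers were lower in 3 of 4 (6.77 to 21.0 CPM in 5 months SYN and 17.0 to 43.4 CPM in 5 months TH). None of these markers was at 0 in a whole group, and their part in the results for chaperone genes was not tested.

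**Figure D2:**
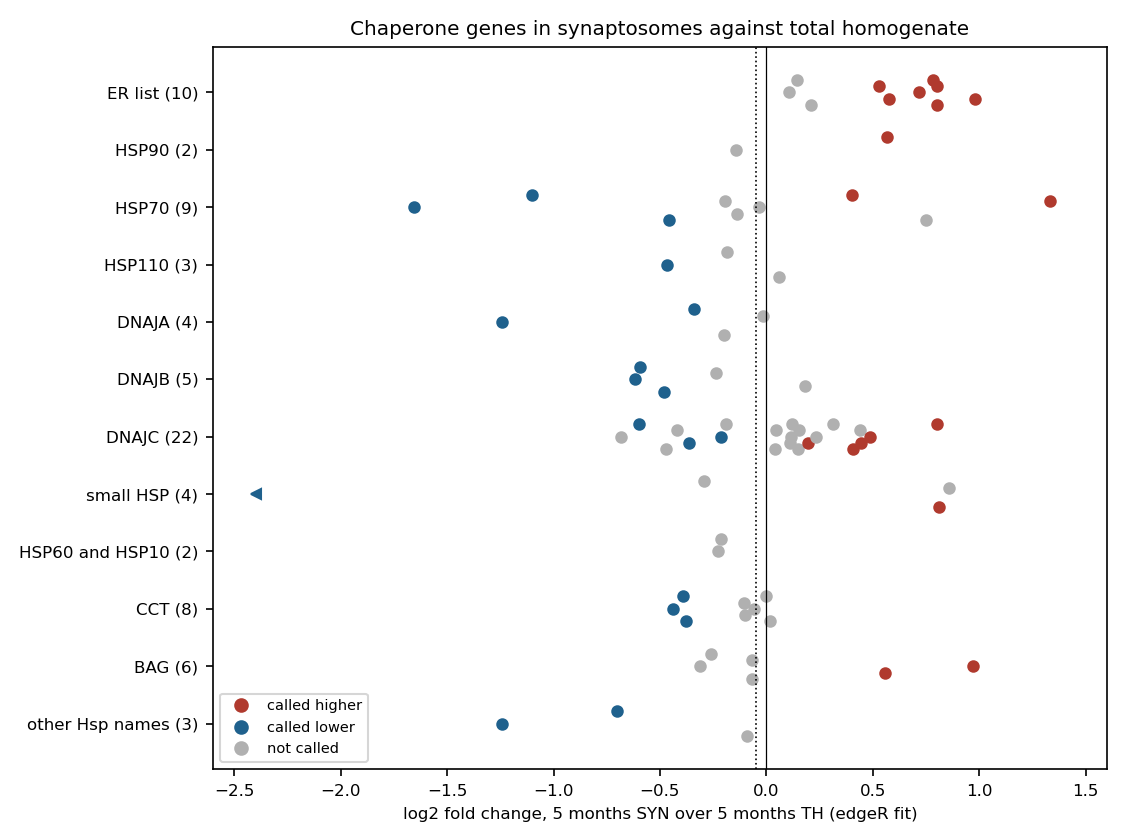
Log2 fold change of 5 months SYN over 5 months TH for the 78 tested chaperone genes, grouped by the ER list and by family, with genes called higher in red, called lower in blue and not called in grey. The ER list lies to the right of 0, the dotted line is the median of all genes, and the triangle at the left edge is Hspb1, which lies beyond the axis.

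Most ER chaperones were higher in synaptosomes. Of 10 listed, 7 were higher in 5 months SYN (8 with the replicate block) and 0 lower, with a median log2 fold change of 0.65 and all 10 above 0. Among the 68 tested chaperone genes not on that list, 11 were higher and 18 lower, with a median of -0.10. The list need not hold every ER protein, so the 68 may include some. Hspa5 (ENSMUSG00000026864, chr2:34771970-34777547, plus strand), the HSP70 of the ER, lay at 193, 200.5, 223 and 203 CPM in 5 months SYN, against 112, 89.5, 109.6 and 169.6 CPM in 5 months TH. The groups did not overlap, though TH replicate 4 came close to the lowest SYN library. The log2 fold change was 0.78 (SE 0.163, edgeR adjusted p = 0.00251), and 0.99 without TH replicate 4. Hsp90b1 (ENSMUSG00000020048, chr10:86690209-86705509, minus strand), also called Grp94, lay at 356, 366, 379.7 and 355 CPM in 5 months SYN, against 237, 219, 231 and 299 CPM in 5 months TH. Again every SYN library was above every TH library and TH replicate 4 was the highest of its group (log2 fold change 0.58, SE 0.0899, edgeR adjusted p = 9.28e-05). Hspa13, a small ER HSP70 without the usual client-binding part, had 29.2, 29.5, 37.0 and 26.8 CPM in 5 months SYN and 14.6, 12.9, 15.7 and 19.3 CPM in 5 months TH. It had the largest fold of the ER list, 0.98 on the log2 scale (SE 0.138, edgeR adjusted p = 3.66e-05).

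Among the J-domain genes of the ER list, Dnajb9, which directs misfolded proteins to degradation, lay at 30.9, 29.9, 30.8 and 33.3 CPM in 5 months SYN and 18.7, 17.5, 18.1 and 18.1 CPM in 5 months TH, a log2 fold change of 0.80 (SE 0.0963, edgeR adjusted p = 7.42e-06). The TH libraries lay within a narrow band well below the SYN ones. Dnajc1, a J-domain protein of the ER membrane, lay at 75.7, 63.0, 84.7 and 66.3 CPM in 5 months SYN and 41.5, 37.5, 41.3 and 47.1 CPM in 5 months TH, a log2 fold change of 0.80 (SE 0.104, edgeR adjusted p = 1.53e-05). Dnajb11, which hands new secretory proteins to BiP, had a log2 fold change of 0.72 and Dnajb12, a membrane J-domain protein that faces the cytosol, one of 0.53 (edgeR adjusted p = 0.000343 and 0.000304). The 3 ER genes that did not pass were Dnajb14 at 0.21 (95% interval 0.043 to 0.38), Dnajc3, an inhibitor of the stress kinase PERK, at 0.14 (-0.15 to 0.44) and Dnajc10, a disulphide reductase, at 0.11 (-0.076 to 0.29), all log2 fold changes.

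Most of the wider ER folding genes went the same way. Of 13 listed unfolded protein response genes 9 were higher and 0 lower, with a median log2 fold change of 0.60. The largest was Calr, which encodes the lectin chaperone calreticulin, at 721 ± 43.8 CPM in 5 months SYN and 283 ± 33.8 CPM in 5 months TH (mean ± SD, n = 4 each), a log2 fold change of 1.36 (edgeR adjusted p = 1.58e-08). Its membrane-bound relative Canx had 1.06 (edgeR adjusted p = 4.52e-08) and Pdia4, a disulphide isomerase, 0.67 (edgeR adjusted p = 6.16e-05). The sensors and switches of the response did not all move: Atf6 had a log2 fold change of 0.44 (edgeR adjusted p = 0.000345), while Xbp1 had -0.0073 (-0.25 to 0.24), Atf4 0.076 (-0.093 to 0.24) and Herpud1 -0.079 (-0.43 to 0.27), with 95% intervals in brackets. Hyou1, the ER member of the HSP110 type, had 0.83 and Sil1, the exchange factor of BiP, 0.65 (edgeR adjusted p = 9.74e-07 and 0.00156).

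**Figure D3:**
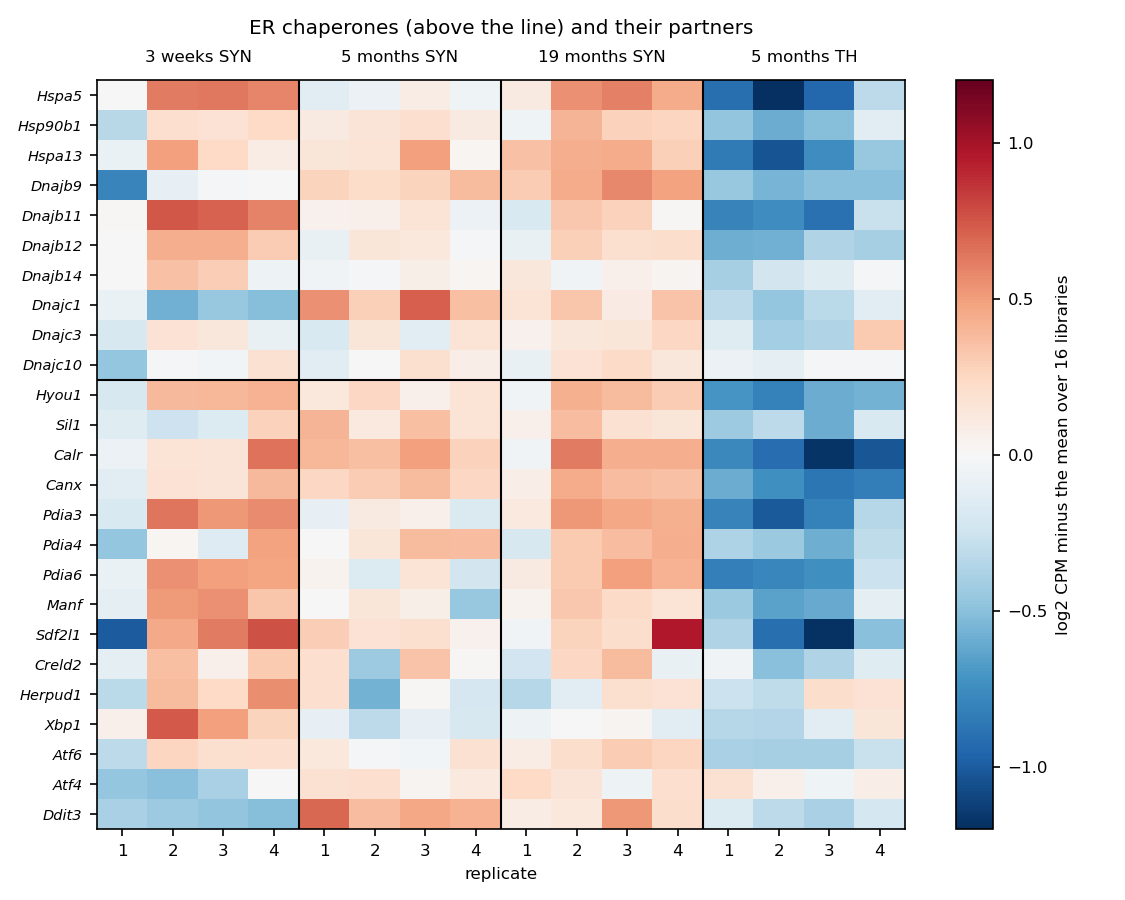
Log2 CPM of each library minus the gene's mean over the 16 libraries, for 10 ER chaperones above the line and their ER partner genes below it, with 3 weeks, 5 months and 19 months SYN followed by 5 months TH. The TH columns are the lowest for most ER chaperones, and 3 weeks SYN replicate 1 lies below its group for Hspa5, Hsp90b1 and Dnajb9.

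In the cytosol neither the HSP90 nor the HSP70 genes moved as one. Over the whole HSP70 family, with its ER members, 4 of 11 tested were higher (Hspa1b, Hspa13, Hspa5 and Hspa2). Another 3 were lower (Hspa12b, Hspa14 and Hspa8), against 24.5% of all genes called higher and 25.6% called lower. Hsp90ab1 (ENSMUSG00000023944, chr17:45567775-45573271, minus strand) lay at 1802, 1511, 1712 and 1673 CPM in 5 months SYN, against 1289, 1229, 1078 and 960.1 CPM in 5 months TH. No TH library reached the lowest SYN library, and the log2 fold change was 0.57 (SE 0.0953, edgeR adjusted p = 0.000179). Its close relative Hsp90aa1 lay at 240.3, 213, 237 and 219 CPM in 5 months SYN and 248, 224, 269 and 272 CPM in 5 months TH. These overlapped, and the log2 fold change of -0.14 (95% interval -0.30 to 0.011) missed the threshold by edgeR (adjusted p = 0.145) but not under upper-quartile scaling (-0.29, edgeR adjusted p = 0.00780). Hsp90aa1 also passed with DESeq2 size factors (-0.20, edgeR adjusted p = 0.0477) and by the DESeq2 Wald test (-0.20, adjusted p = 0.0256). Hspa8 (ENSMUSG00000015656, chr9:40800984-40805200, plus strand) was lower in synaptosomes, at 165, 156, 165 and 153 CPM in 5 months SYN and 196, 202, 239 and 246 CPM in 5 months TH. Every SYN library lay below every TH library (log2 fold change -0.46, SE 0.0837, edgeR adjusted p = 0.000366). Dnaja1 (ENSMUSG00000028410, chr4:40722150-40737149, plus strand), a main J-domain partner of Hspa8, fell further, to 6.20, 5.16, 10.1 and 10.2 CPM in 5 months SYN, against 18.2, 18.8, 18.0 and 20.8 CPM in 5 months TH. Its log2 fold change was -1.24 (SE 0.196, edgeR adjusted p = 0.000105). The other DNAJA genes had log2 fold changes of -0.015 for Dnaja2, -0.34 for Dnaja3, the mitochondrial form (edgeR adjusted p = 0.0270, lost without SYN replicate 1 or 4 or TH replicate 1 or 4, largest p 0.0812), and -0.20 for Dnaja4.

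Of the 13 genes listed as heat-inducible, 6 were lower and 1 higher, with a median log2 fold change of -0.26. Of all genes, 25.6% were called lower and 24.5% higher. The list includes Hspa8, described above as constitutive, which is 1 of the 6 lower. Without Hspb1, which was tested only because its TH counts passed the filter, 5 of 12 were lower and the median was -0.24. Dnajb1, the J-domain protein induced with HSP70, lay at 14.5, 11.4, 13.5 and 12.5 CPM in 5 months SYN and 20.1, 17.6, 18.7 and 16.4 CPM in 5 months TH (log2 fold change -0.48, edgeR adjusted p = 0.00558), with no overlap. Dnajb4, a relative of Dnajb1, had -0.59 and Hspa4l, an HSP110 protein, -0.47 (edgeR adjusted p = 0.000639 and 0.00022). Hspb1 (ENSMUSG00000004951, chr5:135887919-135889563, plus strand), the small heat shock protein HSP27, had 1 count over the 4 libraries of 5 months SYN and 77 counts over those of 5 months TH, a depth-corrected ratio of 0.0241 (95% counting interval 0.000602 to 0.138). The exception was Hspa1b (ENSMUSG00000090877, chr17:34956436-34959238, minus strand), the inducible HSP70, at 6.75, 4.64, 4.89 and 5.50 CPM in 5 months SYN and 2.40, 1.87, 2.53 and 1.93 CPM in 5 months TH. All levels are low but did not overlap, and the log2 fold change of 1.33 was the highest of all chaperone genes called (SE 0.248, edgeR adjusted p = 0.000421). Its copy Hspa1a lay at 4.08, 4.11, 1.96 and 2.63 CPM in 5 months SYN and 2.35, 1.62, 2.07 and 1.63 CPM in 5 months TH, with overlap (log2 fold change 0.75, edgeR adjusted p = 0.0721, and 0.0286 without SYN replicate 3). Reads cannot be assigned with certainty between these copies. Bag3, which links HSP70 to autophagy, had 7.61, 6.51, 7.99 and 5.02 CPM in 5 months SYN and 7.92, 7.96, 8.60 and 8.17 CPM in 5 months TH (log2 fold change -0.26, 95% interval -0.61 to 0.086), and Hsph1, the inducible HSP110, 182, 142, 151 and 175 CPM in 5 months SYN and 197, 171, 178 and 198 CPM in 5 months TH. Both overlapped, and Hsph1 had a log2 fold change of -0.18 (edgeR adjusted p = 0.103). Its approximate 95% interval of -0.36 to -0.0078 leaves out 0, though its unadjusted edgeR p was not under 0.05. Hsph1 passed only under some settings, such as the replicate block, upper-quartile scaling (-0.33, edgeR adjusted p = 0.00742) and without SYN replicate 4 (-0.24, edgeR adjusted p = 0.0481).

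**Figure D4:**
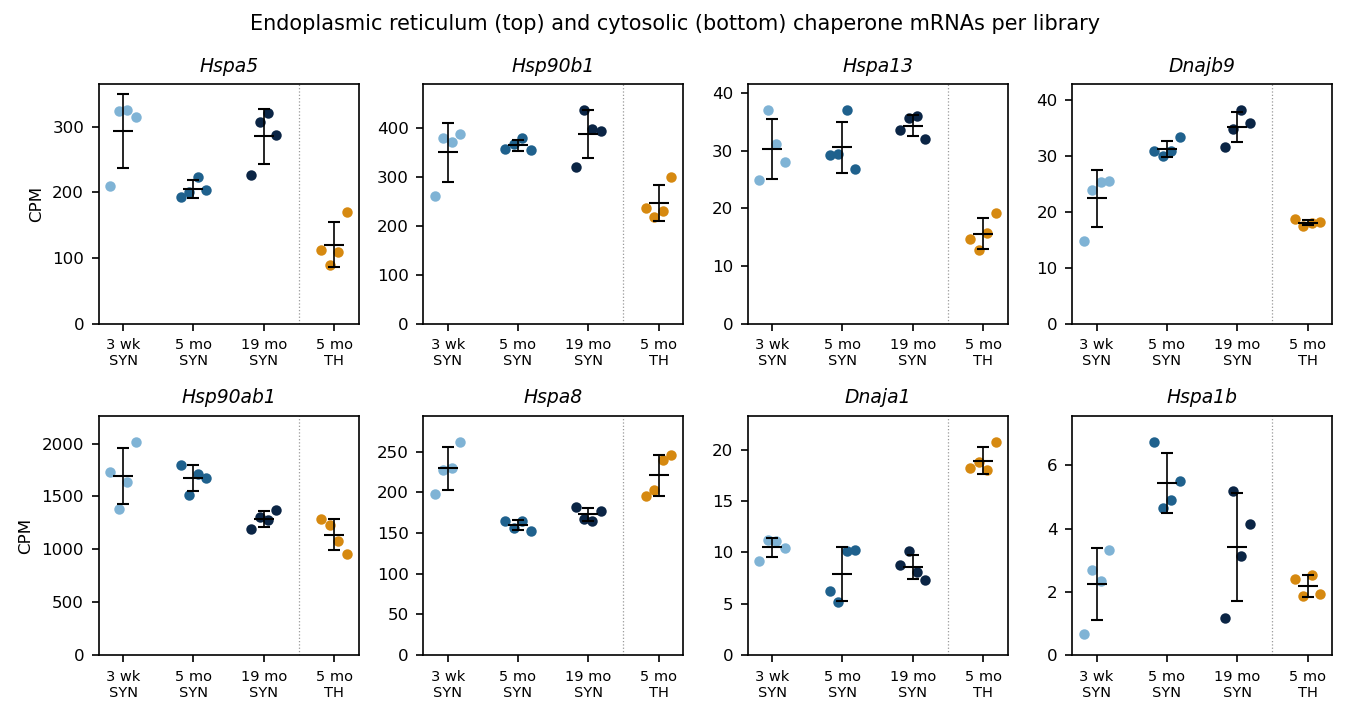
Level (CPM) of 8 chaperone genes in every library, in 3 weeks, 5 months and 19 months SYN and 5 months TH, with a bar for mean ± SD (n = 4). The ER genes in the upper row lie higher in 5 months SYN than in TH, while in the lower row Hsp90ab1 and Hspa1b lie higher and Hspa8 and Dnaja1 lower.

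The genes of the vesicle cycle gave small differences. Dnajc6, the neuronal auxilin, lay at 142, 135, 127 and 129.5 CPM in 5 months SYN and 112, 115, 127 and 116 CPM in 5 months TH. TH replicate 3 reached into the SYN range, and the log2 fold change of 0.19 (edgeR adjusted p = 0.0356) no longer passed with any of 6 libraries left out (SYN replicates 1, 2 and 4 and TH replicates 1, 2 and 4, largest adjusted p = 0.0940). Dnajc6 also missed the threshold under upper-quartile scaling (0.051, edgeR adjusted p = 0.573), with DESeq2 size factors (0.14, edgeR adjusted p = 0.131), without a filter and by the DESeq2 Wald test (adjusted p = 0.108 and 0.0951). Dnajc5, cysteine string protein, lay at 109, 114, 107 and 104 CPM in 5 months SYN and 108, 115, 99.9 and 102 CPM in 5 months TH. Its groups overlapped and the log2 fold change of 0.041 (95% interval -0.10 to 0.18) missed the threshold and turned to -0.10 under upper-quartile scaling. Dnajc13, which acts on endosomes, was lower (log2 fold change -0.21, edgeR adjusted p = 0.0374), a call lost without SYN replicate 1 or 2 or TH replicate 1, 2 or 4 (largest adjusted p = 0.102).

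The co-factors went both ways. Bag1 lay at 106, 109, 93.3 and 96.6 CPM in 5 months SYN and 53.8, 57.4, 45.0 and 51.6 CPM in 5 months TH, a log2 fold change of 0.97 (SE 0.0888, edgeR adjusted p = 4.63e-07) with wide separation of the groups. Bag6, which guards tail-anchored membrane proteins, had 0.56 (edgeR adjusted p = 0.000106), and Hspb8, a small heat shock protein that works with Bag3, 0.81 (edgeR adjusted p = 0.00773). Dnajc16 had 0.80 (edgeR adjusted p = 6.61e-05), at 33.4, 45.8, 49.4 and 37.7 CPM in 5 months SYN and 22, 24.6, 23.5 and 25.9 CPM in 5 months TH. On the other side, Hspg2, which is perlecan of the basement membrane and carries an Hsp symbol without being a chaperone, lay at 4.87, 7.33, 5.87 and 4.66 CPM in 5 months SYN and 12.5, 9.29, 14.9 and 17.3 CPM in 5 months TH (log2 fold change -1.24, edgeR adjusted p = 0.000179). Hspa12b, a distant HSP70 relative of endothelial cells, averaged 0.947 ± 0.636 CPM in 5 months SYN and 3.09 ± 0.766 CPM in 5 months TH (log2 fold change -1.66, edgeR adjusted p = 0.00691). It reached the filter's count level in 2 of 4 SYN libraries and 4 of 4 TH libraries, so it was tested only through TH, where it is high. Hspg2 and Hspa12b lie beside the lower endothelial and mural markers given above. Dnajb6, which holds back polyglutamine aggregates, had -0.62 and Dnajc21, a ribosome assembly factor, -0.60 (edgeR adjusted p = 0.00340 and 0.00075). Among 29 listed HSP70 and HSP90 co-chaperones 7 were higher and 8 lower, near the shares of all genes (24.5% higher and 25.6% lower). They ran from Ppid, a cyclophilin of HSP90, at -1.39 to Hyou1 at 0.83, with St13, which links both systems, at 0.51 (log2 fold changes, edgeR adjusted p = 2.6e-05, 9.74e-07 and 0.000288).

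Some genes of the CCT ring were lower in synaptosomes. Of its 8 tested genes 3 were lower and 0 higher in 5 months SYN, with log2 fold changes from -0.44 to 0.019 and a median of -0.10. Upper-quartile scaling gave 5 lower and a median of -0.25, and DESeq2 size factors 3 lower and a median of -0.16. Cct4 had -0.44, Cct8 -0.39 and Cct6a -0.38 (edgeR adjusted p = 0.00323, 0.00690 and 0.00459). Tcp1, the first subunit, lay at 91.7, 79.8, 75.4 and 86.5 CPM in 5 months SYN and 79.5, 77.7, 95.1 and 97.4 CPM in 5 months TH, with overlap (log2 fold change -0.057, 95% interval -0.24 to 0.13). Prefoldin, which delivers actin and tubulin to CCT, and its relatives had 3 of 9 genes higher and 1 lower, with Pfdn2 at 0.90, Pfdn5 at 1.05 and Vbp1 at -0.89 (log2 fold changes, edgeR adjusted p = 4.81e-06, 1.31e-05 and 0.000184). Of the 8 mitochondrial chaperones 1 was lower and 0 higher. Beside these counts and those above stand 24.5% of all genes called higher and 25.6% called lower. Hspd1 lay at 23.6, 22.7, 24.5 and 20.6 CPM in 5 months SYN and 26.6, 25.4, 25.1 and 30.6 CPM in 5 months TH. The groups did not overlap, though the log2 fold change of -0.23 (95% interval -0.43 to -0.020, edgeR adjusted p = 0.0870) missed the threshold, which it passed under upper-quartile scaling (-0.37, edgeR adjusted p = 0.00886). Hspd1 also passed with DESeq2 size factors (-0.28, edgeR adjusted p = 0.0368) and by the DESeq2 Wald test (-0.29, adjusted p = 0.0301).

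Within synaptosomes, more chaperone genes were called between 3 weeks and the later ages than between 5 and 19 months, as was so for all genes. From a fit of the 12 SYN libraries, 7 of 77 tested chaperone genes were higher and 15 lower at 5 months than at 3 weeks (edgeR, adjusted over 15344 genes). Those shares are 9.09% and 19.5%, or 28.6% in either direction. Of all genes, 13.3% were called higher, 11.3% lower and 24.6% in either direction. The median log2 fold change was -0.069 for chaperone genes and 9.7e-05 for all genes. Among the 7 higher, Hspa12b had 1, 3, 2 and 6 counts at 3 weeks and passed the filter on low counts only through the later ages. Its call was lost without 3 weeks SYN replicate 1, 2 or 3 or 5 months SYN replicate 2 (largest edgeR adjusted p = 0.0843). Hspa1b, also among the 7, reached the filter's count level in 3 of 4 libraries at 3 weeks and 4 of 4 at 5 months. A filter of 1 CPM in 4 libraries gave 6 higher and 15 lower of 76. The count of lower genes was 9 without 3 weeks SYN replicate 3, and 10 without both 5 months SYN replicate 4 and 19 months SYN replicate 1. At 19 months against 3 weeks 5 were higher and 14 lower, or 6.49% and 18.2%, and 24.7% in either direction. Of all genes, 10% were called higher, 9.44% lower and 19.4% in either direction. In both contrasts the share of chaperone genes called in either direction is thus near the background, with the lower share above it and the higher share below. With each of the libraries compared left out in turn, 13 of the 22 calls at 5 months and 14 of the 19 at 19 months held every time. Both contrasts use the same 3 weeks libraries. Beside them, 6 of 6 oligodendrocyte markers were lower in each, at 6286 to 8621 CPM summed at 3 weeks, 1924 to 2381 CPM at 5 months and 1939 to 2694 CPM at 19 months. Oligodendrocyte precursor markers were lower in 3 of 3 at 5 months and 2 of 3 at 19 months, and meningeal ones in 2 of 4 at each. Microglia markers were higher in 3 of 8 at 5 months and 4 of 8 at 19 months (125 to 184 CPM summed at 3 weeks, 176 to 211 CPM at 5 months and 214 to 340.0 CPM at 19 months), and endothelial and mural ones in 4 of 9 and 1 of 9. Of 4 nuclear RNAs 2 were higher at 5 months and 0 at 19 months (583 to 855 CPM summed at 3 weeks, 1276 to 6239.8 CPM at 5 months and 1338 to 2123 CPM at 19 months). Neuron markers were higher in 3 of 6 at 5 months and 2 of 6 at 19 months, and astrocyte markers lower in 2 of 8 at each and higher in 1 of 8 at 19 months. The part of these markers in the results for chaperone genes was not tested.

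Several CCT genes were lower at the later ages than at 3 weeks, and none was higher. At 5 months 5 of 8 were lower than at 3 weeks and 0 higher, all 8 lay below 0, and the median log2 fold change was -0.33. The count was 3 without any one of 3 weeks SYN replicates 2 or 3 or 5 months SYN replicates 2 or 4. At 19 months 4 of 8 were lower than at 3 weeks and 0 higher, with a median of -0.30 and again all 8 below 0. The summed level of the 9 CCT genes was 413 to 443 CPM at 3 weeks, 338 to 363 CPM at 5 months and 342 to 365 CPM at 19 months. Cct6a (ENSMUSG00000029447, chr5:129786998-129846371, plus strand), the zeta subunit, lay at 60.5, 60.3, 63.8 and 58.0 CPM at 3 weeks, 41.0, 35.0, 37.8 and 43.6 CPM at 5 months and 47.4, 46.4, 41.2 and 44.1 CPM at 19 months. The 3 weeks libraries lay above all others. The log2 fold change was -0.61 at 5 months (SE 0.0973, edgeR adjusted p = 4.27e-05) and -0.43 at 19 months (SE 0.0973, edgeR adjusted p = 0.00202), both against 3 weeks. Cct8, the theta subunit, lay at 36.3, 39.7, 36.1 and 33.6 CPM at 3 weeks, 23.2, 27.4, 29.4 and 26.7 CPM at 5 months and 28.3, 24.9, 23.4 and 30.5 CPM at 19 months. Here too the 3 weeks libraries were the highest (log2 fold change -0.43 at 5 months and -0.44 at 19 months against 3 weeks, edgeR adjusted p = 0.00591 and 0.00668). Cct3, the gamma subunit, had -0.41 at 5 months and -0.57 at 19 months, and Cct2, the beta subunit, -0.30 and -0.36 (edgeR adjusted p = 0.0253 and 0.00296 for Cct3, 0.0145 and 0.00516 for Cct2). At 5 months the Cct3 call was lost without 3 weeks SYN replicate 2 or 3 or 5 months SYN replicate 2 (largest edgeR adjusted p = 0.0984) and the Cct2 call without 5 months SYN replicate 4 (edgeR adjusted p = 0.0530). Cct4, also called lower at 5 months, lost its call without 3 weeks SYN replicate 2, 3 or 4 or 5 months SYN replicate 1, 2 or 4 (largest edgeR adjusted p = 0.119). Tcp1 did not pass, at 104, 85.4, 89.8 and 85.0 CPM at 3 weeks, 91.7, 79.8, 75.4 and 86.5 CPM at 5 months and 94.6, 74.7, 80.0 and 81.1 CPM at 19 months.

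**Figure D5:**
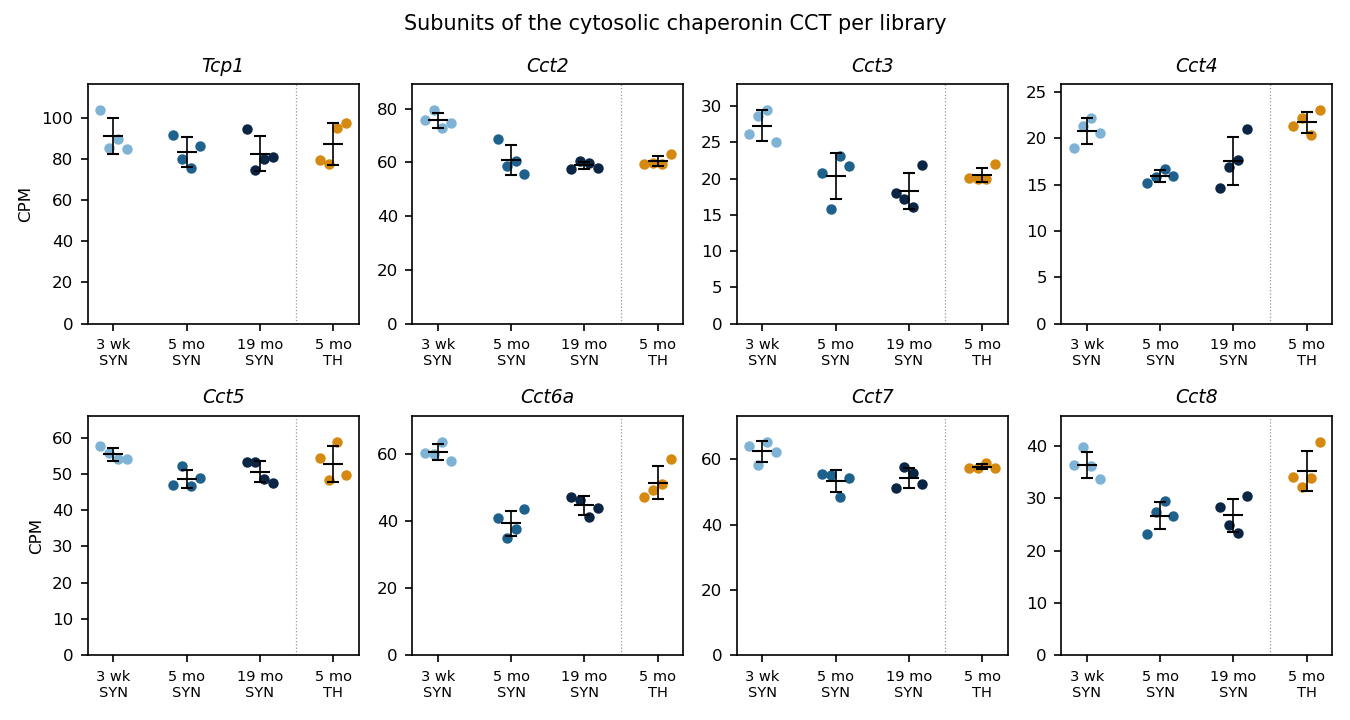
Level (CPM) of the 8 tested CCT genes in every library, in 3 weeks, 5 months and 19 months SYN and 5 months TH, with a bar for mean ± SD (n = 4). For Cct6a and Cct8 the 3 weeks libraries lie above every library of the later ages.

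Hspa8 was lower at both later ages than at 3 weeks, while its vesicle partners varied. Hspa8 lay at 198, 228, 229 and 262 CPM at 3 weeks, 165, 156, 165 and 153 CPM at 5 months and 182, 168, 164 and 177 CPM at 19 months. All later libraries lay below all 3 weeks libraries, with log2 fold changes of -0.51 at 5 months and -0.40 at 19 months against 3 weeks (edgeR adjusted p = 0.000121 and 0.00165). Dnajc5 lay at 128, 136, 142 and 125 CPM at 3 weeks, 109, 114, 107 and 104 CPM at 5 months and 114, 113, 113 and 117 CPM at 19 months. It was lower at 5 months than at 3 weeks (-0.27, edgeR adjusted p = 0.0151), a call lost without 3 weeks SYN replicate 3 (adjusted p = 0.0699), and at 19 months the log2 fold change was -0.22 (95% interval -0.38 to -0.055). Dnajc6 lay at 142, 162, 161 and 160.3 CPM at 3 weeks, 142, 135, 127 and 129.5 CPM at 5 months and 136, 121, 126 and 118 CPM at 19 months. It was lower at 19 months than at 3 weeks (-0.31, edgeR adjusted p = 0.00896), while at 5 months the log2 fold change was -0.21 (95% interval -0.38 to -0.048), called without 3 weeks SYN replicate 1 (edgeR adjusted p = 0.0207). Dnajc13 had log2 fold changes of 0.11 at 5 months (95% interval -0.066 to 0.29) and 0.0038 at 19 months (95% interval -0.17 to 0.18) against 3 weeks and passed at neither.

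Other HSP70 genes moved with age as well. Hspa12a, a brain-enriched distant relative, lay at 135, 131, 138 and 148 CPM at 3 weeks, 108, 102, 91.3 and 120.1 CPM at 5 months and 97.4, 98.6, 97.5 and 103 CPM at 19 months (log2 fold change -0.37 at 5 months and -0.47 at 19 months against 3 weeks, edgeR adjusted p = 0.00300 and 0.000385). Hspa2, best known from the testis, lay at 60.8, 50.7, 60.7 and 68.3 CPM at 3 weeks, 53.5, 51.7, 42.8 and 39.3 CPM at 5 months and 40.1, 36.0, 39.5 and 38.6 CPM at 19 months (-0.35 and -0.64, edgeR adjusted p = 0.0208 and 0.000138). Levels at 3 weeks were the highest for both genes, except that Hspa2 overlapped between 3 weeks and 5 months, and its call at 5 months was lost without 3 weeks SYN replicate 3 or 4 or 5 months SYN replicate 3 or 4 (largest edgeR adjusted p = 0.0890). Hspa1b lay at 0.653, 2.68, 2.33 and 3.31 CPM at 3 weeks, 6.75, 4.64, 4.89 and 5.50 CPM at 5 months and 1.185, 5.20, 3.14 and 4.13 CPM at 19 months. It was higher at 5 months than at 3 weeks (1.28, edgeR adjusted p = 0.0119), and 19 months spanned both, with replicate 1 low. Hspa1b reached the filter's count level in 3 of 4 libraries at 3 weeks and 4 of 4 at each later age. It therefore met the filter in full only where it is higher. Hspa1a averaged 2.25 ± 0.611 CPM at 3 weeks, 3.20 ± 1.08 CPM at 5 months and 3.18 ± 0.705 CPM at 19 months, and passed in no age comparison.

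Hspa5 had its lowest mean level at 5 months. It lay at 209, 323, 325 and 315 CPM at 3 weeks, 193, 200.5, 223 and 203 CPM at 5 months and 226, 307, 320.4 and 287 CPM at 19 months. At 3 weeks replicate 1 fell within the 5 months range and the other 3 libraries lay above it, and at 19 months all libraries lay above the 5 months ones. The log2 fold change was -0.50 at 5 months against 3 weeks (SE 0.120, edgeR adjusted p = 0.00348) and -0.036 at 19 months against 3 weeks (95% interval -0.27 to 0.20). For 19 months against 5 months it was 0.46 (SE 0.121), which missed the threshold in the fit of 12 libraries (edgeR adjusted p = 0.0826) and passed it by the DESeq2 Wald test (adjusted p = 0.0216). Of the other ER genes, Dnajb11 had -0.48 at 5 months and -0.42 at 19 months (edgeR adjusted p = 0.0103 and 0.0304, both against 3 weeks), the second lost without any one of 3 weeks SYN replicates 2, 3 or 4 or 19 months SYN replicates 1 or 4 (largest adjusted p = 0.111). Dnajc1 went the other way, at 48.9, 34.7, 37.8 and 36.2 CPM at 3 weeks, 75.7, 63.0, 84.7 and 66.3 CPM at 5 months and 58.0, 65.0, 55.4 and 65.3 CPM at 19 months (0.90 and 0.64 against 3 weeks, edgeR adjusted p = 1.75e-06 and 0.000206). Dnajb9 did likewise, at 14.8, 23.9, 25.3 and 25.6 CPM at 3 weeks, 30.9, 29.9, 30.8 and 33.3 CPM at 5 months and 31.6, 34.8, 38.2 and 35.8 CPM at 19 months (0.49 and 0.65, edgeR adjusted p = 0.00733 and 0.000823). For both, every library of the later ages lay above every 3 weeks library. Hsp90b1 passed in no age comparison, at 261, 378, 371 and 388 CPM at 3 weeks, 356, 366, 379.7 and 355 CPM at 5 months and 319, 436, 398 and 393 CPM at 19 months, where replicate 1 was the lowest at both 3 weeks and 19 months. Over the list of 10, 2 were higher and 2 lower at 5 months than at 3 weeks, with a median log2 fold change of 0.020, and 2 higher and 1 lower at 19 months. The 13 unfolded protein response genes had 2 higher and 4 lower at 5 months and 2 higher and 1 lower at 19 months, both against 3 weeks. Ddit3, the stress factor CHOP, had 0.96 at 5 months and 0.70 at 19 months, and Xbp1 -0.57 and -0.44 (edgeR adjusted p = 7.76e-06 and 0.000495 for Ddit3, 0.00167 and 0.0151 for Xbp1).

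The cytosolic HSP90 genes were lowest at 19 months. Hsp90ab1 lay at 1729, 1385, 1637 and 2018 CPM at 3 weeks, 1802, 1511, 1712 and 1673 CPM at 5 months and 1193, 1306, 1279.8 and 1368 CPM at 19 months, so that every 19 months library lay below every younger one. The log2 fold change was -0.39 at 19 months against 3 weeks (SE 0.101, edgeR adjusted p = 0.00642). Against 5 months it was -0.39 (SE 0.101), which missed the threshold (edgeR adjusted p = 0.0757) but passed by the DESeq2 Wald test (adjusted p = 0.0128). At 5 months against 3 weeks it was 0.0017 (95% interval -0.20 to 0.20). Hsp90aa1 lay at 228, 232, 264 and 240.2 CPM at 3 weeks, 240.3, 213, 237 and 219 CPM at 5 months and 203, 203, 177 and 197 CPM at 19 months, again with the oldest libraries lowest. Its log2 fold change at 19 months against 3 weeks was -0.30 (edgeR adjusted p = 0.0129), and the call was lost without 3 weeks SYN replicate 3 or 19 months SYN replicate 3 (adjusted p = 0.0699 and 0.0624). Bag1 was lower at 19 months than at 3 weeks (-0.32, edgeR adjusted p = 0.0215), a call lost without 3 weeks SYN replicate 1 or 19 months SYN replicate 3 or 4 (largest adjusted p = 0.102), as was Hspa4, a constitutive HSP110 protein (-0.32, edgeR adjusted p = 0.00704).

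A few further genes passed between ages. Dnaja4, a J-domain protein that overlaps an antisense neighbour, lay at 18.6, 20.5, 20.3 and 32.2 CPM at 3 weeks, 38.7, 33.9, 29.5 and 39.7 CPM at 5 months and 31.7, 31.4, 36.8 and 31.8 CPM at 19 months, with 3 weeks replicate 4 among the older values (log2 fold change 0.65 at 5 months and 0.53 at 19 months against 3 weeks, edgeR adjusted p = 0.00120 and 0.00867). Dnajc15, a J-domain protein of the mitochondrial import motor, had 0.73 and 0.60 (edgeR adjusted p = 0.000469 and 0.00386), with every 3 weeks library below the later ones. Dnaja3 was lower at 5 months (-0.58, edgeR adjusted p = 0.00241), and Dnajc21 higher (0.67, edgeR adjusted p = 0.000899), both against 3 weeks. At 5 months Hspg2 was also called lower than at 3 weeks (log2 fold change -0.63). That call was lost without 3 weeks SYN replicate 4 or 5 months SYN replicate 1 or 4 (largest edgeR adjusted p = 0.120). Hspd1 lay at 25.7, 27.0, 31.8 and 28.1 CPM at 3 weeks, 23.6, 22.7, 24.5 and 20.6 CPM at 5 months and 23.1, 20.8, 20.7 and 20.7 CPM at 19 months. It was lower at 19 months than at 3 weeks (-0.40, edgeR adjusted p = 0.0151), a call lost without 3 weeks SYN replicate 3 (adjusted p = 0.0818). Bag3 lay at 6.36, 5.56, 4.26 and 5.77 CPM at 3 weeks, 7.61, 6.51, 7.99 and 5.02 CPM at 5 months and 7.20, 14.5, 6.45 and 8.45 CPM at 19 months, where replicate 2 was far above the others. It was higher at 19 months than at 3 weeks (0.76, edgeR adjusted p = 0.0204), but 0.43 (adjusted p = 0.213) without that replicate and 0.65 (adjusted p = 0.0887) without 3 weeks SYN replicate 3. Dnajb1 was lower at 5 months than at 3 weeks (-0.50, edgeR adjusted p = 0.0183), and the call was lost without 3 weeks SYN replicate 3 or 4 or 5 months SYN replicate 2 (adjusted p = 0.0868, 0.0739 and 0.0565). Hsph1 lay at 134, 151, 166 and 173 CPM at 3 weeks, 182, 142, 151 and 175 CPM at 5 months and 134, 142, 146 and 146 CPM at 19 months and passed in no age comparison. Among the partners Ptges3, the HSP90 co-chaperone p23, was lower at 5 months than at 3 weeks (-0.81, edgeR adjusted p = 5.46e-05) and St13 and Pfdn2 higher (0.53 and 0.55, edgeR adjusted p = 0.000111 and 0.000298).

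Between 19 and 5 months 0 of 77 chaperone genes passed by edgeR, against 0.13% of all genes called higher, 0.169% called lower and 0.3% called in either direction. At an unadjusted edgeR p under 0.05 there were 12 of the 77, beside 2103 of all 15344 genes tested. The DESeq2 Wald test called 1 higher, Hspa5, and 1 lower, Hsp90ab1, which are the same genes that passed when only the 8 libraries were fitted. The CCT genes lay between -0.17 and 0.17 on the log2 scale. Summed over the ER list, levels were 897 to 1129.6 CPM at 19 months and 901 to 998 CPM at 5 months.

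Splicing between ages was read from the authors' deposited tables, in which intron usage is given once per age, with no error, and the p-values are the authors' own. Of 26 intron clusters in 19 chaperone genes, 1 passed in the authors' deposited LeafCutter table at 5 months against 3 weeks (adjusted p under 0.05), against 6.61% of all clusters. It lies in Dnajb12 (adjusted p = 0.0461), where 3 introns share an end. In that table the intron at chr10:59896448-59897490 made up 70.1% of the cluster at 5 months and 60.2% at 3 weeks, while the one at chr10:59896496-59897490 made up 4.57% at 5 months and 15.9% at 3 weeks. For 19 months against 3 weeks the authors' deposited LeafCutter table gave 1 of 25 clusters in 18 genes, against 4.81% of all clusters. This one is in Bag6 (adjusted p = 0.0412), where the intron at chr17:35146354-35146756 made up 24.8% at 19 months and 32.9% at 3 weeks and the longer one at chr17:35146354-35147140, which skips the exon between, 9.98% at 19 months and 5.73% at 3 weeks. For 19 against 5 months that table had 0 of 24 clusters in 17 genes, against 0.768% of all clusters.

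Dnajc6 held a shift that did not pass. In the authors' deposited LeafCutter table its intron at chr4:101508183-101597800 made up 33.3% at 5 months and 16.3% at 3 weeks (adjusted p = 0.116). In the authors' deposited DIEGO table, which tests single junctions, 5 of 653 junctions in 63 genes passed at 5 months against 3 weeks (q under 0.05), against 1.48% of all junctions, 1 each in Dnajc10, Hsp90b1, Cct4, Hsp90ab1 and Dnaja2. At 19 months against 3 weeks it was 2 of 638 junctions in 61 genes, in Dnaja3 and Hsp90b1, against 0.69% of all junctions, and at 19 against 5 months 0 of 629, against 0% of all junctions. The Hsp90b1 junction was the same in both tables, chr10:86691643-86691742, and those contrasts share the 3 weeks libraries. Every DIEGO call in a chaperone gene has the smallest p in that table, 0.0209, so calls cannot be ranked, and the sign of its abundance change is not given in the sources used here.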

How the data were processed

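The authors' deposited table holds integer read counts per gene for all 16 libraries, with 0 count columns of no sample. Per the submitters' processing notes, bcl2fastq 2.20.0.422, cutadapt 1.18, Trimmomatic 0.38 and featureCounts of Subread were used on build GRCm38.p6, with aligner and strand setting not given in the sources used here. The authors' LeafCutter tables, as deposited, give each intron cluster an adjusted p-value and each intron its fraction of the cluster at an age (young, adult and old, taken as 3 weeks, 5 months and 19 months). Their DIEGO tables, as deposited by the authors, give each junction an abundance change score with its p-value and q-value.

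Here low counts were removed by group (filterByExpr), TMM scaling was used, and edgeR 4.0.16 in R 4.3.3 ran its robust quasi-likelihood F test over all genes, called at an adjusted p under 0.05. The fit of SYN against TH held 8 libraries and that of the ages 12, both without a replicate block. Per the file headers, same-numbered SYN and TH columns share a further number. Their deviations from the group means correlated at 0.0360 to 0.202, and 3 of 4 SYN libraries correlated best with the TH library of their own number. Whether they are pairs is not stated, and calls that the block changes are given beside the results. CPM use TMM over all 16 libraries, and CPM per kb the deposited gene length. Python 3.11.15, pandas 2.3.3 and matplotlib 3.10.9 did the rest. The code was tested on simulated data. The 95% intervals of log2 fold changes are approximate. They use limits of a normal distribution with an SE derived from the F statistic, and run narrower than the F test would give. Counting intervals are exact at 95% and cover counting error only. No library was a copy of another.

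The members and lists were chosen with earlier results of these data known. Genes with values per library were drawn from 15 always shown plus, per comparison, called members with the 8 smallest adjusted p or the 4 highest and 4 lowest log2 fold changes at 5 CPM or more. Not every gene so drawn is given per library in each comparison, and other members were named after their values were seen. Alternatives were other scalings, filters, a replicate block, other library sets, DESeq2 1.42.0, leaving out libraries and stricter splicing thresholds. Leaving out both libraries that stand apart and the search for the ER stress response element were added after the data were seen. Hspa14 stands under 2 gene IDs, and sequences of genes on chromosome 18 are not shown.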

Additional observations from a re-analysis of the deposited data

Results flagged for a closer look

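Of 132 groups of 4 libraries looked at for the named genes, 9 held 1 library whose gap to the next was past Dixon's 95% critical value for the group's range, where chance gives about 1 in 20. In 3 weeks SYN, replicate 1 lay below its group for 4 genes: Hspa5 at 209 CPM (315 to 325 CPM in the others), Hsp90b1 at 261 CPM (371 to 388 CPM), Dnajb9 at 14.8 CPM (23.9 to 25.6 CPM) and Dnajc6 at 141.8 CPM (160.3 to 162 CPM). The same library had 51.7% of its counts on the mitochondrial rRNAs, the most of its group. Also in 3 weeks SYN, replicate 4 lay above its group for Dnaja4 at 32.2 CPM (18.6 to 20.5 CPM) and for Hspg2 at 11.8 CPM (7.66 to 8.24 CPM). In 19 months SYN, replicate 3 lay high for Dnaja4 at 36.8 CPM (31.4 to 31.8 CPM) and replicate 1 for Hspd1 at 23.1 CPM (20.7 to 20.8 CPM). In 5 months TH, replicate 4 lay high for Cct3 at 22.01 CPM (19.97 to 20.1 CPM).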

How the results depend on the processing

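Of 1485 values of 84 named gene results under the alternatives, 1407 kept their direction and their side of the threshold, 30 passed newly, 25 no longer passed and 23 changed sign, 15 of these with 1 library left out. For 5 months SYN against TH, upper-quartile scaling gave 28 lower genes. With each library left out in turn that contrast gave 17 to 20 higher and 14 to 19 lower, 5 months against 3 weeks 6 to 7 higher and 9 to 17 lower (9 without 3 weeks SYN replicate 3), 19 months against 3 weeks 4 to 6 higher and 11 to 14 lower, and 19 against 5 months 0. Without a filter, with a replicate block, by the DESeq2 Wald test and with only the 8 libraries compared, 19 against 5 months gave 1 higher and 1 lower. Between ages no source says that replicate numbers pair libraries. The replicate block gave 20 higher and 19 lower for SYN against TH, 7 and 15 for 5 months against 3 weeks, 1 and 1 for 19 against 5 months and 7 and 14 for 19 months against 3 weeks. At an adjusted p under 0.01 the LeafCutter count was 0 for both contrasts with 3 weeks. The DIEGO count at that threshold was 0 by construction, since its smallest p is 0.0209. At a usage change of at least 0.1 the LeafCutter count at 19 months against 3 weeks was 0. The heat shock element of 2 units stood in the windows of 16 chaperone genes. Signs changed near 0, and the cause was not tested. Dnajc5 in SYN against TH was -0.017 with DESeq2 size factors, -0.017 by the DESeq2 Wald test and -0.10 with upper-quartile scaling. Hsp90ab1 at 5 months against 3 weeks was -0.014 without a filter, -0.015 with all 16 libraries and -0.083 to 0.098 with 1 library left out. Hspa1a at 19 against 5 months was 0.016 with the replicate block, 0.051 without both libraries that stand apart and -0.18 to 0.13 with 1 left out. Hspa5 at 19 months against 3 weeks was 0.068 without both and -0.16 to 0.066 with 1 left out. With 1 left out, Hsp90b1 at 5 months against 3 weeks ran over -0.038 to 0.13 and Tcp1 at 19 against 5 months over -0.094 to 0.026. Depth limits the genes near 1 CPM, where the small counts of Hspb1, Hspa12b, Hspa1a and Hspa1b leave wide intervals.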
